A study of Mus musculus with 2 samples.

Results

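Junction and adhesion genes were examined in mouse tissue that the labels call subcutaneous adipose, the fat pad beneath the skin. The set was defined by gene symbol: the claudins, occludin and its relatives (Ocln, Marveld2, Marveld3), the junctional adhesion molecules (F11r, Jam2, Jam3, Cxadr), the cytoplasmic plaque proteins of tight junctions (the Tjp genes, Cgn and Cgnl1), E-cadherin and EpCAM (Cdh1, Epcam), desmosomal proteins (Dsp, Dsg2, Dsc2, Pkp1, Pkp2, Pkp3) and the connexins of the Gja, Gjb and Gjc families. It held 58 of the 43346 annotated genes in the tables. The series is polyA RNA-seq of a single group, with 2 libraries that the labels number as biological replicates 1 and 2. Both came from C57BL/6J tissue, a common inbred laboratory strain, taken at 8 weeks of age from littermates with males and females pooled. No treatment, transgene or mutant allele is named. RNA over 200 nt was depleted of ribosomal RNA, selected for polyA tails and sequenced as stranded paired reads of 76 nt with added spike-in RNAs. The 2 libraries have separate tissue records under a shared donor record, so the spread between them may include how the tissue was taken. With 1 library on each side there was no test of a condition, and no p-value was computed.

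Tight junctions seal the space between neighbouring epithelial or endothelial cells, and claudins are the membrane proteins that set which ions and solutes may pass. The plaque proteins tie claudins and occludin to actin, while cadherins hold the cells together and desmosomes anchor them to intermediate filaments. Connexins assemble into gap junction channels that join the cytoplasm of adjacent cells. In fat, claudin-5 and several connexins are known from blood vessels, whereas many of the other claudins, E-cadherin and EpCAM are known from epithelia.

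Levels are given as TPM, a relative abundance per transcript length that can be set side by side between genes. Of the 58 genes, 19 reached at least 1 TPM in both libraries, 24 reached it in replicate 1 only, none in replicate 2 only, and 15 in neither. Over all annotated genes, 29.4% reached 1 TPM in both and 4.62% in replicate 1 only. The summed level of the 58 genes was 927 TPM in replicate 1 and 597 TPM in replicate 2. TPM was higher in replicate 1 for 44 genes and higher in replicate 2 for 12, and Cldn13 and Cldn17 had no count in either library. The same split was not computed over all genes, so whether it sets these genes apart was not tested. It also depends on the measure. Cldn12, F11r, Gja4, Gjc1 and Tjp1 had higher TPM in replicate 1 but lower counts there once scaled as described below.

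The libraries were then compared gene by gene as the ratio of replicate 1 over replicate 2, from estimated counts scaled with TMM factors. A gene counted as higher in a library when its scaled counts averaged 100 or more and the exact 95% counting interval of its ratio lay wholly beyond 2-fold. By this rule 22 of the 37 genes with enough counts were higher in replicate 1, where 12.5% of all 13403 genes compared were, and 6 were higher in replicate 2, where 10.6% were. The median log2 ratio of the 37 was 3.42, beside -0.04 over all genes compared. A gene could pass the count minimum through replicate 1 alone, and such a gene had to differ, so these counts describe the set and support nothing further. The other 21 genes were below the minimum. In tissue RNA, fewer cells of a type and less RNA per cell cannot be told apart.

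**Figure D1:**
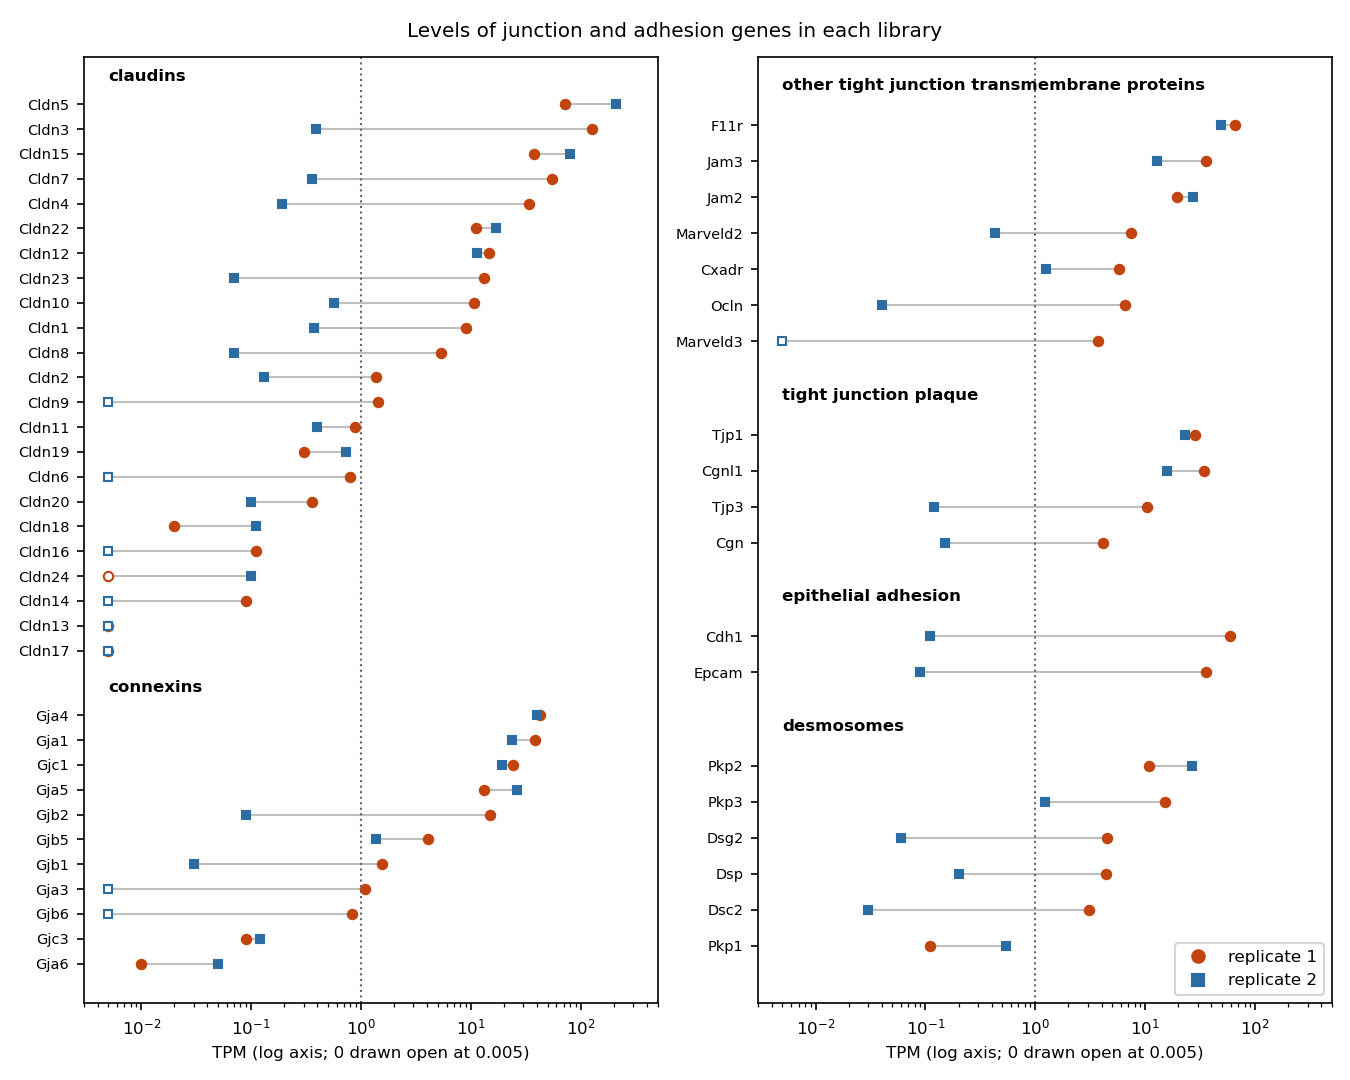
TPM of 53 of the 58 genes in replicate 1 (circles) and replicate 2 (squares), on a log axis, by role; open symbols at the left edge are values of 0, and the dotted line marks 1 TPM. Cldn5, Cldn15, F11r, Gja4 and Tjp1 lie to the right in both libraries, while Cldn3, Cdh1, Epcam and Gjb2 lie above 10 TPM in replicate 1 and below 1 TPM in replicate 2.

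Replicate 1 had 54752739 estimated counts in all, and replicate 2 had 58687668. The libraries stood apart in cell type markers. The 8 adipocyte markers, among them Fabp4 and Cidec, were all present, and all were lower in replicate 1, with a sum of 6987 TPM against 22900 TPM in replicate 2. All 16 markers of simple and glandular epithelium were higher in replicate 1 (944 TPM, against 37.2 TPM in replicate 2), as were 11 of 12 reproductive tract markers (1354 and 22.7 TPM) and all 6 smooth muscle markers (5869 and 655 TPM). Of 9 endothelial markers, 6 were lower in replicate 1 (839 and 1424 TPM). The part of these cell types in the results below was not tested, and with 1 library on each side library and tissue content cannot be told apart.

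The claudins differed in make-up between the libraries. Of the 23 genes, 7 were higher in replicate 1, 3 were higher in replicate 2, 1 was within 2-fold and 12 were below the count minimum. Their summed TPM was of similar size, 392 TPM in replicate 1 and 319.9 TPM in replicate 2, but its make-up was not. The calls rest on scaled counts, which can lean differently: Cldn12 had higher TPM in replicate 1 but a lower scaled count there. The claudins were not summed on scaled counts. Cldn5 and Cldn15 together gave 27.6% of claudin TPM in replicate 1 and 90.1% in replicate 2. Cldn3, Cldn4 and Cldn7 gave 54.8% in replicate 1 and 0.294% in replicate 2. Without Cldn5, Cldn12, Cldn15 and Cldn22, the remaining 19 claudins summed to 258 TPM in replicate 1 and 3.59 TPM in replicate 2.

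**Figure D2:**
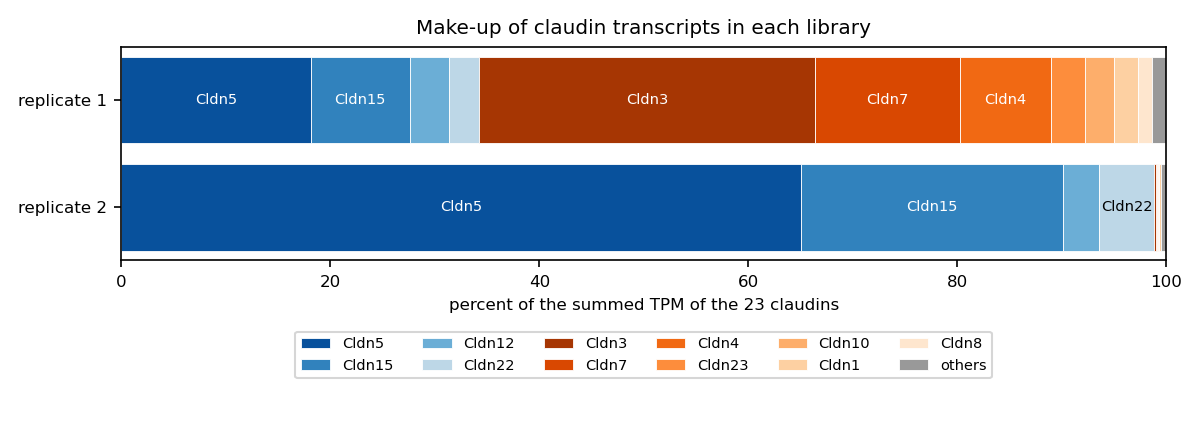
Percent of the summed TPM of the 23 claudins that each claudin gave, in replicate 1 (upper bar) and replicate 2 (lower bar). Blue marks Cldn5, Cldn15, Cldn12 and Cldn22, which made up 34.2% of replicate 1 and 98.9% of replicate 2.

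Cldn3, a sealing claudin of many simple epithelia, is a gene of 1 exon at chr5:134986214-134987472 (mm10, ENSMUSG00000070473.4). It had 126 TPM in replicate 1, from 4962 counts, and 0.39 TPM in replicate 2, from 18 counts. It was the most abundant of the 58 genes in replicate 1, and its ratio was 207 with an interval of 131 to 350. Cldn4, another sealing claudin, lies 39279 bases from Cldn3 on the opposite strand, with no coding gene between them. It had 33.9 TPM in replicate 1 and 0.19 TPM in replicate 2, a ratio of 118 (68.6 to 221). Cldn7, found along the lateral membrane of epithelial cells, had 54.4 TPM in replicate 1 and 0.36 TPM in replicate 2, a ratio of 116 (64.4 to 232). These intervals overlap, so the order of Cldn3, Cldn4 and Cldn7 by ratio is not resolved by their counts.

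Cldn23 had 13.1 TPM in replicate 1 and 0.07 TPM in replicate 2, where it rested on 5 counts, and a ratio of 121 (51.7 to 374). Cldn8, a claudin of the distal nephron and other tight epithelia, had 5.31 TPM in replicate 1 and 0.07 TPM in replicate 2, a ratio of 45.9 (22.1 to 115). All 5 of these claudins were below 1 TPM in replicate 2. Cldn1, which the epidermal barrier requires, had 8.96 TPM in replicate 1 and 0.37 TPM in replicate 2, a ratio of 15.3 (11.6 to 20.8). Cldn10, whose isoforms form cation or anion pores, had 10.6 TPM in replicate 1 and 0.57 TPM in replicate 2, a ratio of 11.9 (8.90 to 16.3). The intervals of Cldn1 and Cldn10 lay wholly below those of Cldn3, Cldn4 and Cldn7.

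Cldn5, the main claudin of vascular endothelium, went the other way. It had 71.0 TPM in replicate 1 and 208 TPM in replicate 2, a mean of 140 ± 97.1 TPM (SD, n = 2), and was the most abundant of the 58 genes in replicate 2. Its scaled count was 4.57-fold lower in replicate 1 than in replicate 2 (4.39 to 4.75). Cldn15, a cation pore known from the intestine, had 37.2 TPM in replicate 1 and 80.0 TPM in replicate 2 and was 3.34-fold lower in replicate 1 (3.18 to 3.50). The 9 endothelial markers, summed, gave 839 TPM in replicate 1 and 1424 TPM in replicate 2, and Cdh5, the cadherin of endothelial junctions, 110 and 192 TPM. On scaled counts, the measure of the folds above, Cdh5 was 2.74-fold lower in replicate 1 (2.68 to 2.79).

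Cldn22 had 11.02 TPM in replicate 1 and 16.8 TPM in replicate 2 and was 2.37-fold lower in replicate 1 (2.06 to 2.73). It lies inside Wwc2, which is on the opposite strand and had 2299 counts in replicate 1 and 3157 in replicate 2. Without knowledge of whether counting used strand, reads of Cldn22 and Wwc2 cannot be told apart. Scaled to total gene counts, the log2 ratio of Cldn22 was -0.73 and no longer beyond 2-fold. Cldn12, a broadly expressed claudin, had 14.8 TPM in replicate 1 and 11.2 TPM in replicate 2. Its log2 ratio was -0.25 with TMM scaling and 0.26 when libraries were scaled to their total gene count, so its direction depends on the scaling.

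The other 12 claudins, Cldn13 and Cldn17 among them, had few counts or none. Cldn2, a cation and water pore, had 97 counts in replicate 1 and 3 in replicate 2. Cldn9 had 66 counts and Cldn6, a claudin of embryonic epithelia, 39 counts in replicate 1, and neither had a count in replicate 2. By the exact interval, Cldn9 was at least 13.1-fold and Cldn6 at least 7.57-fold higher in replicate 1. Set against a floor of 3 counts per library, which corresponds to 0.0558 TPM for Cldn9 and 0.0528 TPM for Cldn6 in replicate 2, the ratios were 16.5 and 9.76. Cldn11, a claudin of myelin and testis, had 55 counts in replicate 1 and 29 in replicate 2. Cldn19, known from kidney tubules and peripheral myelin, ran the other way with 12 and 49 counts. Cldn20 had 6 counts in replicate 1 and 2 in replicate 2, and Cldn18, of stomach and lung, 1 and 3. Cldn14 and Cldn16 had 4 counts each in replicate 1 and 0 in replicate 2, and Cldn24 had 0 counts in replicate 1 and 2 in replicate 2. No fold was computed for the last 3.

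Promoter sequence was available for 38 of the 58 genes, as 53 windows of 300 bases (RefSeq, GRCm38.p6), each from 250 bases before to 50 bases after an annotated start. A pair of motifs was searched on both strands. CACCTG, which reads as CAGGTG on the opposite strand, is an E-box that Snail and Zeb repressors are known to bind, and AACCGGTT is a motif of grainyhead-like activators of epithelial genes. No window of these genes held both motifs, since none held AACCGGTT. CACCTG occurred in 20.2% of the 32851 windows in the whole table and in 22.6% of its 27025 genes. It was present for 9 of the 12 genes with a window that were higher in replicate 1, which were Cldn3, Cldn4, Cldn7, Epcam, Ocln, Marveld2, Tjp3, Dsp and Gjb2. The rest of the 22 genes higher in replicate 1, Cdh1 among them, had no window and could not be read. CACCTG was found for 0 of the 4 genes higher in replicate 2, 1 of 7 genes called in neither direction and 5 of 15 below the count minimum. Median GC content was 60.7% in windows of genes higher in replicate 1 and also in those of genes called in neither direction. It was 57.0% for genes higher in replicate 2 and 52.7% over all windows. AACCGGTT was in 0 of the 53 windows and in 0.146% of all windows, so its absence from this few windows tells little. A match is a description of the letters and not a binding site, some genes have overlapping windows, and the gene groups were formed from the ratios.

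The stretches of 3 claudins are printed here, chosen after the matches were known, from 250 bases before to 20 bases after the start. Capitals mark CACCTG on either strand. Cldn4 (chr5:134946915-134947184, minus strand) and Cldn7 (chr11:69965171-69965440, plus strand, the window of its 2 with matches) hold a pair of matches each, and Cldn5 (chr16:18776597-18776866, plus strand) holds none.
Cldn4: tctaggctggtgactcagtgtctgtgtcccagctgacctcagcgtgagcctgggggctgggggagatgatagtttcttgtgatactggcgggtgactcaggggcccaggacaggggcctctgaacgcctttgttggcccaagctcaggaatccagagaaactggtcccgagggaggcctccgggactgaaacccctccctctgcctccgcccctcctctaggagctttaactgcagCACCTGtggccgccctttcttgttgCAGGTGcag
Cldn7: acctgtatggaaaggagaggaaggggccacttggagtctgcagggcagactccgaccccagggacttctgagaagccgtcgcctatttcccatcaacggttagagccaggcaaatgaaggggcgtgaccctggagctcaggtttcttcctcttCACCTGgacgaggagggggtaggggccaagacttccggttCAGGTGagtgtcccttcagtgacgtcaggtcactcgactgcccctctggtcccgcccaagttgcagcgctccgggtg
Cldn5: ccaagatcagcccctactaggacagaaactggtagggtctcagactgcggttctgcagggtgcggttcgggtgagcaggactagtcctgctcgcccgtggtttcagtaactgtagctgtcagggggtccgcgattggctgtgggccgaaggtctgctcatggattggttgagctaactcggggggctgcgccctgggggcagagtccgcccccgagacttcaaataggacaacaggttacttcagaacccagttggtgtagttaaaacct

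Of the 6 role groups, the general epithelial adhesion genes had the largest ratio of summed TPM between the libraries. Cdh1, which encodes E-cadherin, the adhesion protein of epithelial adherens junctions, lies at chr8:106603351-106670246 (ENSMUSG00000000303.8). It had 58.8 TPM in replicate 1, from 8455 counts, and 0.11 TPM in replicate 2, from 19 counts. Its ratio was 334 (214 to 555), and this interval overlaps those of Epcam, Dsg2 and Cldn3, among others. Epcam, a surface adhesion protein of simple epithelia, had 35.6 TPM in replicate 1 and 0.09 TPM in replicate 2, from 2443 and 7 counts, with a ratio of 262 (127 to 653). Together they summed to 94.3 TPM in replicate 1 and 0.2 TPM in replicate 2. Of all genes compared, 80, or 0.597%, had an interval wholly above 64-fold in replicate 1. Among the 58 genes these were Cdh1, Epcam, Cldn3, Cldn4, Dsg2 and Cldn7, the last only just, with a lower limit of 64.4. The Epcam promoter (chr17:87635729-87635998, plus strand, RefSeq) holds a pair of CACCTG matches, in capitals.
Epcam: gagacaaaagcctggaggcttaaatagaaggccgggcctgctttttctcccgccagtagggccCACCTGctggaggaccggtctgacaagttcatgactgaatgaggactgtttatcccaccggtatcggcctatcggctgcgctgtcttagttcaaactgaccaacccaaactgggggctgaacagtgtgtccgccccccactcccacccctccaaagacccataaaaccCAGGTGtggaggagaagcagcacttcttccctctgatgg

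Among the 7 other transmembrane proteins of tight junctions, 3 were higher in replicate 1, 1 was higher in replicate 2, 2 were within 2-fold and 1 was below the count minimum. Ocln, which encodes occludin, had 6.5 TPM in replicate 1 and 0.04 TPM in replicate 2, a ratio of 104 (44.3 to 321). Marveld2, or tricellulin, which seals corners where 3 cells meet, had 7.45 TPM in replicate 1 and 0.43 TPM in replicate 2, a ratio of 11.1 (8.31 to 15.1). The genes are neighbours, 43238 bases apart on chromosome 13, and the interval of Ocln lay wholly above that of Marveld2. Marveld3, a relative of occludin, had 222 counts in replicate 1 and 0 in replicate 2. At a mean scaled count of 96.2 it was just below the minimum. By the exact interval it was at least 44.8-fold higher in replicate 1, and set against the floor of 3 counts its ratio was 55.6.

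Cxadr, the coxsackievirus and adenovirus receptor, had 5.72 TPM in replicate 1 and 1.26 TPM in replicate 2, a ratio of 3.18 (2.75 to 3.69). The junctional adhesion molecules were well expressed in both libraries. F11r, found in epithelia, endothelium and platelets, had 65.3 TPM in replicate 1 and 49.3 TPM in replicate 2 and stood behind only Cldn3 and Cldn5 in replicate 1 and behind only Cldn5 and Cldn15 in replicate 2. Jam2, of endothelium, had 19.3 TPM in replicate 1 and 27.1 TPM in replicate 2 and was 2.22-fold lower in replicate 1 (2.12 to 2.33), which total-count scaling brought within 2-fold (log2 ratio -0.64). Jam3 had 35.8 TPM in replicate 1 and 12.7 TPM in replicate 2, and its ratio was 1.80 (1.67 to 1.95) with TMM, but above 2-fold on TPM and with total-count or spike-in scaling. F11r changed direction with the scaling, from a log2 ratio of -0.22 with TMM to 0.29 with total counts.

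In the cytoplasmic plaque, 3 of 5 genes were higher in replicate 1, none was higher in replicate 2 and 2 were within 2-fold. Tjp1, a scaffold protein that binds claudins and actin, had 28.1 TPM in replicate 1 and 23.1 TPM in replicate 2. Its log2 ratio was -0.36 with TMM and 0.16 with total counts. Tjp3, a relative of Tjp1 known mainly from epithelia, had 10.3 TPM in replicate 1 and 0.12 TPM in replicate 2, a ratio of 54.3 (32.8 to 97.4). It overlaps Apba3 on the opposite strand, which had 3965 counts in replicate 1 and 3317 in replicate 2, a far smaller difference. Cgn, or cingulin, which links the plaque to actin, had 4.09 TPM in replicate 1 and 0.15 TPM in replicate 2, a ratio of 17.1 (11.96 to 25.4). Its relative Cgnl1, or paracingulin, had 34.4 TPM in replicate 1 and 15.7 TPM in replicate 2, a ratio of 1.31 (1.26 to 1.36) with TMM. The size depends on the scaling: the log2 ratio of Cgnl1 was 0.39 with TMM and 0.90 with total counts, and above 2-fold on TPM.

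**Figure D3:**
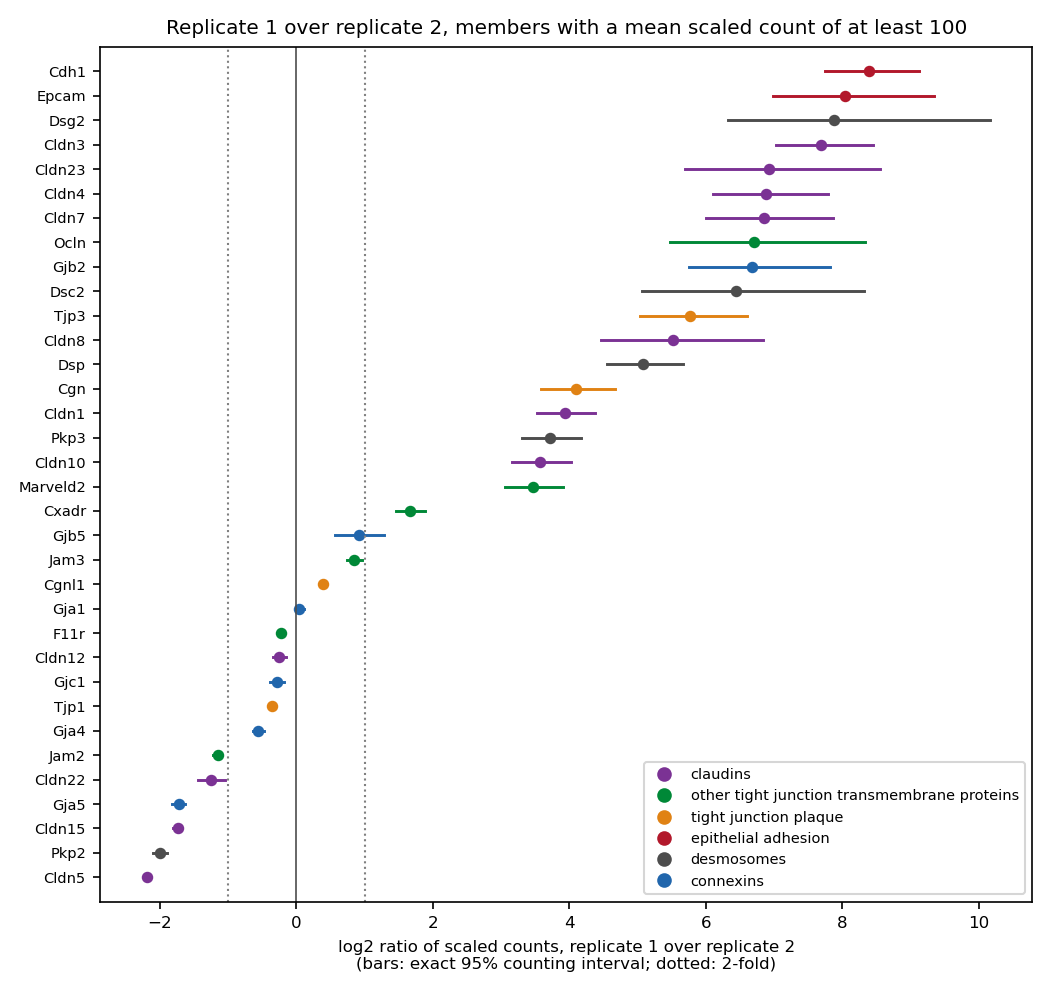
Log2 ratio of scaled counts, replicate 1 over replicate 2, for 34 of the 37 genes whose scaled counts averaged 100 or more; bars are exact 95% counting intervals, colours give the role, and dotted lines mark 2-fold. Genes of every role lie on the right, Cdh1, Epcam and Dsg2 among them; Cldn5, Pkp2, Cldn15, Gja5, Cldn22 and Jam2 lie beyond 2-fold on the left.

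Of the 6 desmosomal genes, 4 were higher in replicate 1, 1 was higher in replicate 2 and 1 was below the count minimum. Dsg2 and Dsc2, the desmosomal cadherins of simple epithelia and heart, lie on chromosome 18. Dsg2 had 940 counts in replicate 1 and 3 in replicate 2, a ratio of 235 (80.3 to 1143), and Dsc2 had 461 and 4 counts, a ratio of 86.5 (33.6 to 319). With so few counts in replicate 2 the sizes of these ratios are poorly fixed. Dsp, or desmoplakin, which binds the filaments, had 4.37 TPM in replicate 1 and 0.2 TPM in replicate 2, a ratio of 34.0 (23.5 to 50.9).

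The plakophilins, plaque proteins of the desmosome, split by gene. Pkp3, of epithelia, had 15.2 TPM in replicate 1 and 1.23 TPM in replicate 2, a ratio of 13.2 (9.89 to 17.98). Pkp2, which heart muscle requires, had 10.8 TPM in replicate 1 and 26.4 TPM in replicate 2 and was 4.01-fold lower in replicate 1 (3.73 to 4.30). Pkp1, of stratified epithelia, had 18 counts in replicate 1 and 106 in replicate 2 and was below the minimum. Of 7 epidermal markers, Flg had no count in either library, Krt1 and Ivl had none in replicate 2, and the sum was 19.6 TPM in replicate 1 and 33.2 TPM in replicate 2, most of it from Sbsn.

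Of the 15 connexins, 3 were higher in replicate 1, 1 was higher in replicate 2, 4 met the rule in neither direction and 7 were below the count minimum. Gja1, Gja4, Gja5 and Gjc1, the connexins known from blood vessels and heart, gave 117 TPM in replicate 1 and 109 TPM in replicate 2, which was 75.0% and 97.2% of connexin TPM. The other 11 connexins summed to 39.1 TPM in replicate 1 and 3.11 TPM in replicate 2. Gja4, of arterial endothelium, had 42.1 TPM in replicate 1 and 39.8 TPM in replicate 2. Gja1, the most widely expressed connexin, had 37.9 and 23.5 TPM, and Gjc1, of smooth muscle and heart, 23.9 and 19.2 TPM. None of the 3 was beyond 2-fold, and Gjc1 moved from a log2 ratio of -0.28 with TMM to 0.23 with total counts.

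Gja5, another arterial connexin, had 13.2 TPM in replicate 1 and 26.5 TPM in replicate 2 and was 3.31-fold lower in replicate 1 (3.10 to 3.53). Its annotated span overlaps Gpr89 on the opposite strand. Its RefSeq promoter (chr3:97032152-97032421, plus strand) holds no CACCTG and is shown in lower case throughout.
Gja5: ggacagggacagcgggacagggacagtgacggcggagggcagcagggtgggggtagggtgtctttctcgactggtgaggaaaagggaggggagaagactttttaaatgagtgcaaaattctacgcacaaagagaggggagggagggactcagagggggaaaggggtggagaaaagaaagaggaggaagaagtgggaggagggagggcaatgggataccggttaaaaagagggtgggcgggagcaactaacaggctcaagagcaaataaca

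Gjb2, the connexin whose loss in humans is a common cause of deafness and which is expressed in many epithelia, had 14.9 TPM in replicate 1 and 0.09 TPM in replicate 2. Its ratio was 103 (53.9 to 225), close to those of Cldn4 and Ocln. Gjb5, of skin and placenta, had 4.04 TPM in replicate 1 and 1.37 TPM in replicate 2, and its interval of 1.48 to 2.44 crossed 2-fold.

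The connexins below the minimum were mostly seen in replicate 1. Gjb1, of liver and Schwann cells, had 79 counts in replicate 1 and 2 in replicate 2. Gjb6, the partner of Gjb2 in the inner ear, had 59 counts and Gja3, of the eye lens, 54 in replicate 1, and neither had a count in replicate 2. By the exact interval, Gjb6 was at least 11.6-fold and Gja3 at least 10.6-fold higher in replicate 1, and set against the floor of 3 counts their ratios were 14.8 and 13.5. Gja6 had 1 count in replicate 1 and 4 in replicate 2, and Gjc3 had 11 and 18.

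Several of these genes sit in clusters, and neighbours could differ widely in level. Cldn1 and Cldn16 lie 91293 bases apart on chromosome 16, and Cldn1 had 1022 counts in replicate 1 while Cldn16 had 4. Cldn8 had 428 counts in replicate 1 and its neighbour Cldn17 none in either library. In the cluster of Cldn13, Cldn4 and Cldn3 on chromosome 5, Cldn13 had none while the others were high in replicate 1. Cldn6 and Cldn9, 137 bases apart on chromosome 17, were both seen in replicate 1 only.

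Transcript use could be compared for 11 genes with at least 100 counts in each library and more than 1 annotated transcript. In 10 of them the same transcript led in both libraries. For Tjp1, the form with 27 exons took 59.1% of the gene's TPM in replicate 1 and 61.1% in replicate 2, and the form with 28 exons, whose coding sequence is 5235 rather than 5055 bases, took 40.9% and 38.9%. F11r, Jam2 and Jam3 each used their leading form for over 94% of TPM in both libraries. Cldn15 used Cldn15-202 for 77.8% in replicate 1 and 66.2% in replicate 2, and Pkp2 had 15.8% and 3.41% on a transcript with a retained intron.

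Gjc1 was the exception. Gjc1-201 took 51.7% of its TPM in replicate 1 and 28.4% in replicate 2, while Gjc1-202 took 25.9% and 55.5%. Both have a coding sequence of 1188 bases. Cldn10 was assigned wholly to Cldn10-203 in both libraries. Forms also differed for genes with few reads in replicate 2. For Pkp3, 62.3% of TPM was on the retained-intron form Pkp3-205 in replicate 2, which took 10.3% in replicate 1, and the 4 Dsc2 counts of replicate 2 were all on a transcript annotated for nonsense-mediated decay. Short reads are divided among similar transcripts by a model, so these shares are estimates without a replicate error.

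**Figure D4:**
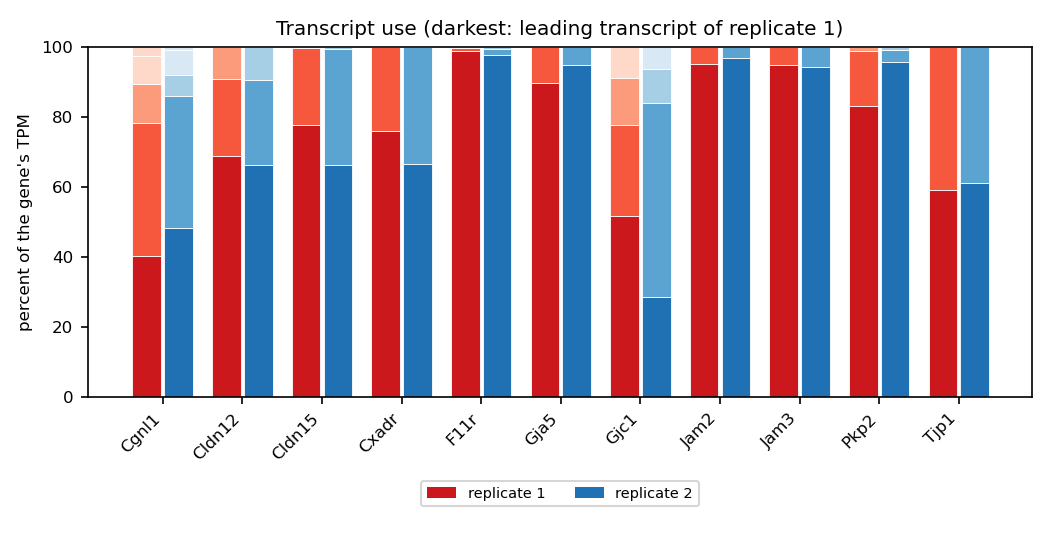
Share of each gene's TPM by transcript in replicate 1 (left, red) and replicate 2 (right, blue) for the 11 genes compared; the darkest part is the leading transcript of replicate 1. Gjc1 is the gene in which the darkest part is not the largest in replicate 2, at 28.4%.

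A further list of 53 junction genes and regulators was read in the same way. Of the 44 with enough counts, 20 were higher in replicate 1, 6 were higher in replicate 2 and 18 met the rule in neither direction. Their median log2 ratio was 0.57. Of all genes compared, 12.5% were higher in replicate 1 and 10.6% in replicate 2, with a median of -0.04. Of 9 cadherins and catenins, 3 were higher in each library, and Cdh5 and Jup, or plakoglobin, were lower in replicate 1, with 141 TPM against 229 TPM in replicate 2 for Jup. Ctnnb1, or beta-catenin, had 219.7 TPM in replicate 1 and 46.2 TPM in replicate 2. Its ratio on scaled counts was 2.39 (2.32 to 2.46), well below the ratio of the TPM values, so the size depends on the measure. Of 5 nectins and afadin, 2 were higher in replicate 1 and 1, afadin, was higher in replicate 2. Of 15 tricellular and plaque proteins, 5 were higher in replicate 1 and 1 in replicate 2: Lsr, a partner of tricellulin, had 60.1 TPM in replicate 1 and 3.82 TPM in replicate 2, while Esam, an endothelial adhesion molecule, had 83.6 and 150.1 TPM. Of the 4 other desmosomal genes, Perp, Ppl and Evpl were higher in replicate 1. Panx1, the 1 gene of 7 pannexins and remaining connexins with enough counts, had 17.2 TPM in replicate 1 and 4.57 TPM in replicate 2.

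Known regulators of these genes were read in both directions. Of 7 activators, 4 had enough counts, and Elf3 (32.8 TPM in replicate 1 and 0.18 TPM in replicate 2), Klf5 (17.4 and 0.6 TPM) and Grhl2 (8.2 and 0.05 TPM) were higher in replicate 1. Grhl1 was lower in replicate 1, with 1.21 TPM against 2.05 TPM in replicate 2. Of 6 repressors, Twist2 (188 TPM in replicate 1 and 18.2 TPM in replicate 2), Snai1 (67.7 and 16.1 TPM) and Snai2 were also higher in replicate 1, and Zeb1, Zeb2 and Twist1 met the rule in neither direction. Genes known as repressors and genes known as activators were thus both among those higher in replicate 1.

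Cell type markers were read in the same libraries. Markers of mammary epithelium, a gland that lies in this depot in females, were low in both libraries (9.8 TPM in replicate 1 and 7.7 TPM in replicate 2), with 9 of 11 below the count minimum, and Csn1s1, Csn2, Wap, Glycam1 and Areg had no count in either. Prlr gave 2.47 and 5.06 TPM of these sums and Trp63 gave 2.19 and 2.4 TPM. Krt5 had 208 counts in replicate 1 and 4 in replicate 2, and Elf5 had 59 and 1, so the closeness of the sums did not hold for each marker. How much of this gland either library held was not tested. Of 12 reproductive tract markers, the 11 with enough counts were higher in replicate 1, and Sprr2f (393 TPM in replicate 1 and 1.86 TPM in replicate 2) and Wfdc2 (380.3 and 0.14 TPM) were the most abundant. The 4 lymphatic endothelial markers, of which Prox1 alone was beyond 2-fold, gave 41.3 TPM in replicate 1 and 23.4 TPM in replicate 2. Mesothelial markers gave 288 TPM in replicate 1 and 63.2 TPM in replicate 2, with 3 of 6 higher in replicate 1. Schwann cell markers gave 36.5 TPM in replicate 1 and 50.7 TPM in replicate 2, with 2 of 7 lower in replicate 1, and S100b gave 1.84 and 15.4 TPM of these. Skeletal muscle markers gave 222 and 138 TPM, most of it from Acta1 (203 and 115 TPM), with 1 of 5, Myl1, lower in replicate 1 and Myh4 at 0 in both. Ckm, with 146 counts in replicate 1 and 17 in replicate 2, and Tnnt3, with 87 and 6, were below the count minimum. Progenitor markers gave 1410 and 986 TPM, with 1 of 5 higher and 1 lower in replicate 1, and macrophage markers 349 and 224 TPM, with none of 4 called. On scaled counts the median log2 ratio was 0.14 for the progenitor markers and -0.02 for the macrophage markers. Elf3 and Grhl2 are in both the activator and the glandular lists, and Cdh5 and Esam in both the junction and the endothelial lists. The part of any of these cell types in the junction gene differences was not tested.

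**Figure D5:**
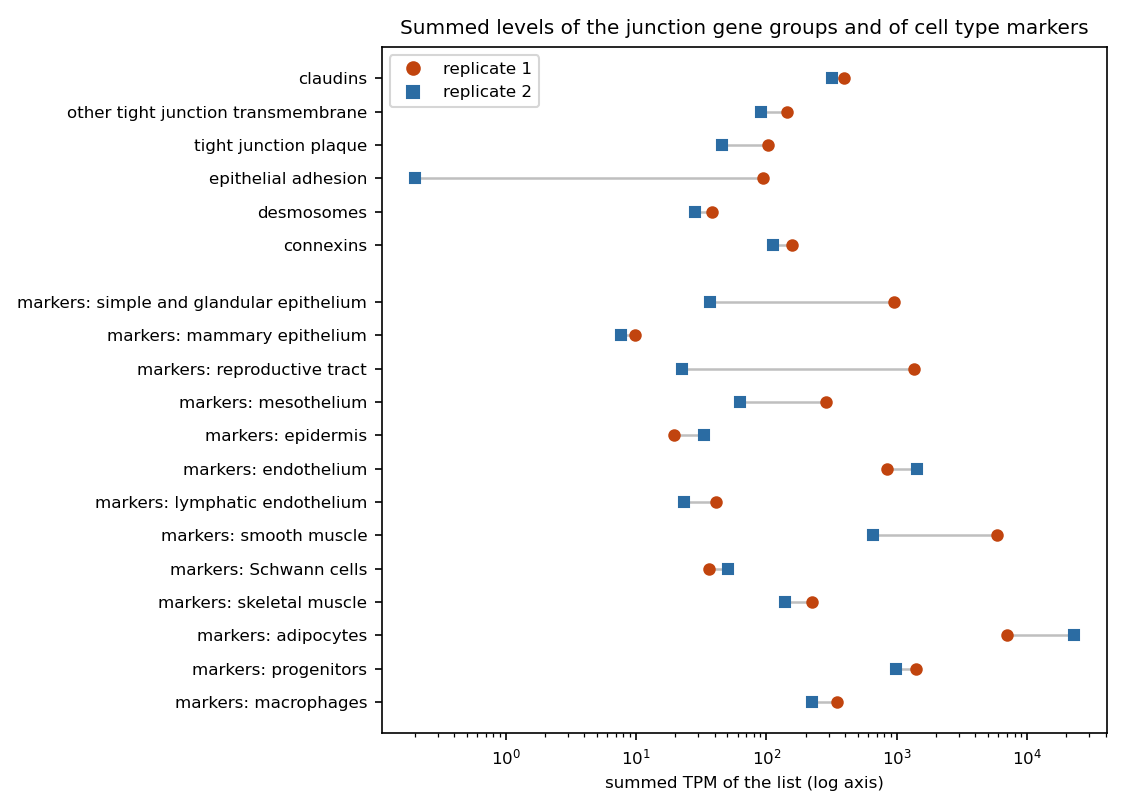
Summed TPM of the 6 role groups (top) and of the cell type marker lists (below) in replicate 1 (circles) and replicate 2 (squares), on a log axis. The epithelial adhesion genes, at 94.3 and 0.2 TPM, and the glandular and reproductive tract markers are far higher in replicate 1, whereas adipocyte and endothelial markers are lower there.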

How the data were processed

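Per the labels, both libraries are biological replicates of a single group. The deposited gene and transcript tables hold expected counts, TPM and FPKM, which the authors made from reads aligned to mm10 with GENCODE M4, per the deposited notes; the program that counted them, and whether it used strand, could not be read from the labels or notes. Per transcript, the deposited percent of the gene's TPM is listed too. Reads matching several genes were divided by a model, and the deposited count carried a spread above 0 from this division for 3 of the 58 genes, Cldn22, Cldn24 and Cgn. Junction and contig tables on mm9 were not used.

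Symbols, coordinates and transcript names come from GENCODE M21 on the same build, and 884 of 43346 genes had no symbol match. Rounded counts were scaled with TMM factors (edgeR 4.0.16, R 4.3.3), 1.20 in replicate 1 and 0.837 in replicate 2, over annotated genes without the 97 spike-in features. Intervals are exact Clopper-Pearson 95% intervals (scipy 1.17.1); they and the floor of 3 counts cover counting error only, and PCR duplicates are not told apart. Every gene found by the rule could be named; of other lists, the 4 of highest mean TPM and any gene a result turns on. The counts cover all 58 genes, of which 5 are not reported here by name. Members and lists were chosen with earlier results of these data known. Alternatives covered scaling (DESeq2 1.42.0 size factors, total and spike-in counts), count minimum, fold, TPM threshold, FPKM, posterior means, pseudocounts and each library alone.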

Additional observations from a re-analysis of the deposited data

How the results depend on the processing

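No paired analysis was possible because the series has a single group. Read in each library alone, 19 to 43 of the 58 genes reached 1 TPM, the low value without replicate 1. At a mean scaled count of 500, 9 genes were higher in replicate 1 and 5 in replicate 2. The median log2 ratio was 0.22. This minimum dropped 13 of the 22 genes higher in replicate 1, and only Cldn22 of those higher in replicate 2. Over all genes it left 8.93% higher in replicate 1 and 11.4% higher in replicate 2, with a median of -0.11. At 4-fold, 20 genes were higher in replicate 1, where 6.19% of all genes compared were. At that fold 1 gene, Cldn5, was higher in replicate 2, where 2.14% were. The median log2 ratio was 3.96 with total counts, 3.90 with spike-ins, and 3.53 and 2.15 on TPM with pseudocounts of 0.1 and 1, which shrink ratios of low genes. Total scaling raised every log2 ratio by 0.51 and spike-in scaling by 0.46. Gjb5, Jam3 and Marveld3 then joined the genes higher in replicate 1 (25), and Cldn22 and Jam2 left those higher in replicate 2 (4). Of all genes compared, 22.3% with total counts and 20.9% with spike-ins were higher in replicate 1, and 4.40% and 4.88% in replicate 2. The share of all calls that were higher in replicate 1 was 83.5% and 81.1%, beside 54.2% with TMM. With DESeq2 size factors or posterior mean counts the counts were 22 and 6, as with TMM. Transcript use, with minimums of 20 and 500 counts chosen after seeing the data, gave 14 and 9 genes with the same leading form. No direction of a called gene reversed. Cdh1 had 19 counts in replicate 2, and counts that low limit how well the size of such ratios is known.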
